A study of Mus musculus with 9 samples.

Results

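The genes described here are 10 transcription factors of the corneal epithelium, namely *Pax6*, *Klf4*, *Klf5*, *Ehf*, *Elf3*, *Grhl1*, *Grhl2*, *Grhl3*, *Trp63* and *Ovol1*. They were chosen by name as regulators of this epithelium, with earlier results of these data known, as were the gene lists set beside them. They were matched by Entrez Gene identifier, and all 10 were among the 19369 genes listed in at least 1 sample. RNA-Seq was performed on 9 samples of wild-type C57BL/6 mouse embryos, 3 each of periocular neural crest at E10.5 (pNC), cornea at E14.5 and cornea at E16.5, where E is the embryonic day. Each sample was a pool of tissue from several eyes. The E10.5 tissue had been treated with dispase to strip off the ectoderm with the lens vesicle and the optic cup, whereas the corneas kept their epithelium. By the paper's account, epithelium and crest-derived mesenchyme were differentiating at E14.5, and the epithelium, stroma and endothelium had formed by E16.5.

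The cornea is covered by a stratified epithelium that derives from the head surface ectoderm, while its stroma and endothelium derive from neural crest. *Pax6* encodes the paired homeodomain protein required for formation of the eye and for the identity of the corneal epithelium. p63, encoded by *Trp63*, maintains the basal progenitors of stratified epithelia, and the Grainyhead-like, Krüppel-like and epithelium-specific Ets factors act with it on junction, adhesion and keratin genes. Ovol1 is a zinc finger repressor that acts in epithelial differentiation and holds back mesenchymal genes.

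Library totals ran from 8745161 to 9069023 expected counts, so counting error was small except for genes with few counts. One sample stood apart from its group in the epithelial genes. E14.5 cornea replicate 1 had a summed level of 330 FPKM (fragments scaled to the length of the transcript and to the mapped fragments of the sample) for 8 general epithelial genes (*Cdh1*, *Epcam*, *Cldn7*, *Spint1*, *Spint2*, *Ap1m2*, *Rab25* and *St14*), against 218 and 219 FPKM in replicates 2 and 3. The same sample had more stroma marker RNA (*Kera*, *Lum* and *Dcn* summed to 3.72e+03 FPKM, against 1.34e+03 and 1.5e+03) and less red cell RNA (146 FPKM, against 641 and 646). In each of these sums it lay on the side of the E16.5 corneas, which had 354 to 463, 4.57e+03 to 4.67e+03 and 3.9 to 7.61 FPKM. For the transcription factors named at the start, fold changes that include this sample are also given without it, except those of *Ehf* against E10.5. Fold changes of all other genes are given only with this sample. Its part in them, and in other values unless stated, was not tested. In bulk tissue, fewer epithelial cells and less RNA per cell cannot be told apart.

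Each of the 10 genes was higher in E16.5 cornea than in E10.5 pNC, and the genes differed in how much of this difference was present at E14.5. The ectoderm had been removed from the E10.5 tissue and not from the corneas. A difference against E10.5 therefore cannot be told apart from the effect of this dissection. Below, a rise means a higher level at the later stage. The summed level was 21.7 to 33.2 FPKM at E10.5, 173 to 281 FPKM at E14.5 and 393 to 506 FPKM at E16.5, and the 3 ranges did not overlap. By their stage means, 3 of the 10 had 5 FPKM or more in E10.5 pNC, 6 in E14.5 cornea and 10 in E16.5 cornea. A gene was called with edgeR's quasi-likelihood test where its adjusted p was under 0.05 and its log2 fold change 1 or more in size. Of the 10 genes, 9 were called higher in E14.5 cornea than in E10.5 pNC, where 13.6% of the 14771 genes tested were called higher and 7.97% lower. Between E10.5 and E16.5 all 10 were called higher, beside 19.4% of genes tested (15.4% lower). Between E14.5 and E16.5, 7 were called higher, beside 6.26% of genes tested (5.47% lower). The median log2 fold change of the 10 genes was 2.92, 4.29 and 1.68 in these comparisons, beside 0.01, 0.000625 and -0.02 over the genes tested. From E10.5 to E16.5 the log2 fold change ran from 1.67 for *Klf4* through 3.31 for *Grhl2*, 3.48 for *Elf3*, 3.6 for *Grhl3*, 3.69 for *Trp63*, 4.89 for *Pax6* and 5.02 for *Ovol1* to 6.21 for *Grhl1* and 6.28 for *Klf5*. No fitted fold is given for *Ehf* against E10.5, where it had under 3 counts in each sample, and the medians do not depend on it because the interval of its ratio lay above them. Every later sample was above every earlier one for 9, 10 and 9 of the 10 genes, which was the case for 31.4%, 33% and 14.8% of genes tested. With library totals in place of TMM scaling, the median of the genes tested shifted by -0.15 between E10.5 and E16.5 and by -0.16 between E14.5 and E16.5. In the last comparison the calls over all genes then split into 731 higher and 1099 lower, against 924 and 808 with TMM.

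**Figure D1:**
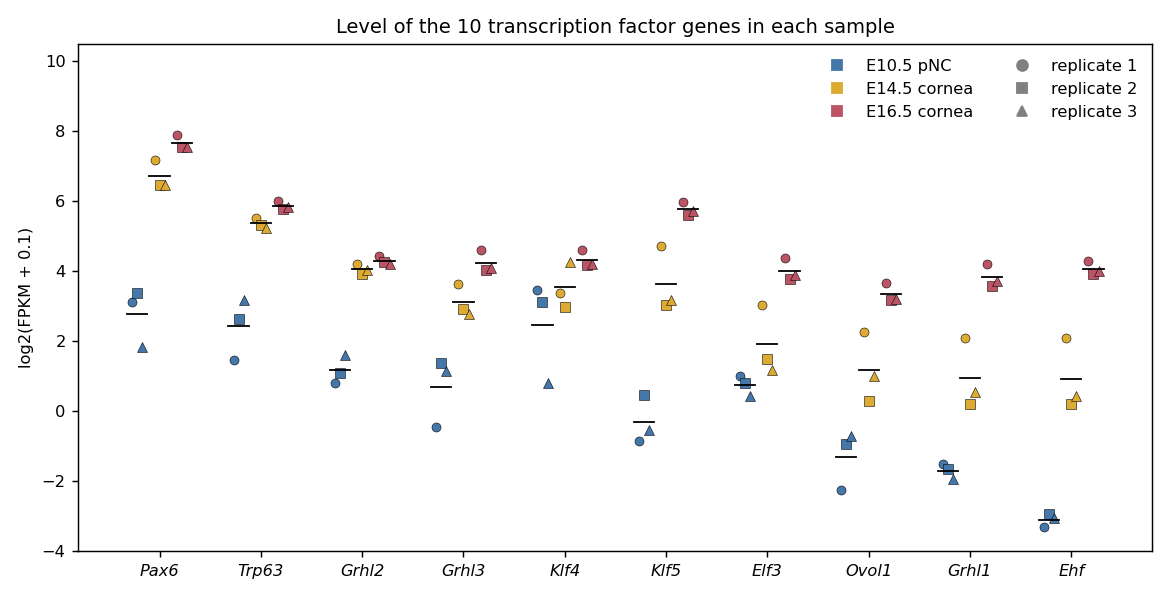
Each point is the level of a gene in a sample as log2(FPKM + 0.1), coloured by stage and shaped by replicate, and each bar is the mean of the 3 log2 values of a stage. *Pax6* is highest at E14.5 and E16.5, *Ehf* lies at the bottom at E10.5, and the E14.5 replicate 1 points of *Klf5*, *Elf3*, *Ovol1*, *Grhl1* and *Ehf* stand above the other E14.5 points.

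Because FPKM is scaled to transcript length, the levels of the genes were also set in order. At E10.5 the order ran from *Pax6* (7.48 ± 3.6 FPKM, mean ± SD, n = 3) and *Klf4* (7.06 ± 4.82) through *Trp63* (5.91 ± 3.2) down to *Grhl1* (0.21 ± 0.05) and *Ehf*. Each gene overlapped its next neighbour in that order except *Grhl1* and *Ehf*. At E14.5 *Pax6* (108 ± 33 FPKM) and *Trp63* (41.3 ± 4.32) separated from each other and from *Grhl2* (16.6 ± 1.71), while all neighbours below *Grhl2* overlapped. At E16.5 *Pax6* (204 ± 28.6 FPKM) was again apart, *Trp63* (58.6 ± 5.08) and *Klf5* (55.1 ± 7.56) overlapped each other and lay above the rest. The other 7 genes had mean levels between 10.2 FPKM for *Ovol1* and 20.3 FPKM for *Klf4*, each overlapping the next.

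*Pax6*, *Trp63* and *Grhl2* had the highest levels of the 10 genes at E14.5 and log2 fold changes of 1.08 or less after it. *Pax6* (chr2:105668896-105698410, plus strand, GRCm38) was at 8.63, 10.36 and 3.44 FPKM in the E10.5 samples, 145.89, 88.81 and 88.81 FPKM at E14.5 and 237.25, 186.18 and 189.45 FPKM at E16.5. No ranges overlapped. The log2 fold change was 3.81 (SE 0.34, adjusted p = 7.95e-06) from E10.5 to E14.5 and 1.08 (SE 0.30, adjusted p = 0.0172) from E14.5 to E16.5. The later step lay at the fold minimum and was not called in several other analyses, being 0.92 with library totals (adjusted p = 0.0303) and 0.95 to 0.97 without E14.5 replicate 2, E14.5 replicate 3 or E16.5 replicate 1.

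*Trp63* (chr16:25683763-25892088, plus strand) was at 2.64, 6.06 and 9.03 FPKM at E10.5, 46.18, 39.79 and 37.95 FPKM at E14.5 and 64.31, 54.53 and 57.06 FPKM at E16.5. It rose by a log2 fold change of 2.94 (SE 0.28, adjusted p = 1.12e-05) before E14.5. The later difference was 0.76 (SE 0.25, adjusted p = 0.0368), under the fold minimum, although all E16.5 samples were above all E14.5 samples. *Trp63* is known for transcripts from separate promoters with different 3' ends, and the files listed 8 RefSeq transcripts for it. The length that the files give for the gene, which RSEM weights by transcript abundance, was 4265, 3867 and 3569 bases at E10.5 and 4535, 4403 and 4341 bases at E16.5, with no overlap. At E14.5 it was 4236, 4038 and 4229 bases, which overlapped E10.5 alone. The files give no level per transcript, so the transcripts behind this difference are not named here.

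*Grhl2* (chr15:37232821-37363569, plus strand), which directs epithelial junction genes such as *Cdh1*, had, with *Trp63*, the narrowest spread of the 10 genes between samples of cornea. It was at 1.63, 2.03 and 2.95 FPKM at E10.5, 18.38, 14.99 and 16.28 FPKM at E14.5 and 21.47, 19.06 and 18.52 FPKM at E16.5. The log2 fold change was 2.89 (SE 0.18, adjusted p = 6.17e-07) in the earlier interval and 0.41 (SE 0.15, adjusted p = 0.0597) in the later one. The later difference was not called, and its samples did not overlap.

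*Ehf*, *Grhl1*, *Klf5*, *Elf3* and *Ovol1* had the largest differences of the 10 genes between E14.5 and E16.5, with log2 fold changes of 2.08 to 3.13. *Ehf* (chr2:103263431-103303275, minus strand), an epithelium-specific Ets factor, was at 0, 0.03 and 0.02 FPKM at E10.5, with under 3 counts in every sample. At E14.5 it was at 4.18, 1.06 and 1.24 FPKM, and at E16.5 at 19.57, 15.15 and 15.82 FPKM. The 3 E10.5 samples held 2 counts in all, against 252 at E14.5, a ratio of 128 with an exact 95% interval of 35 to 1.06e+03 that covers counting error only (adjusted p = 0.000175). Against the 1969 counts at E16.5 the ratio was 999 (276 to 8.26e+03, adjusted p = 9.57e-07). From E14.5 to E16.5 *Ehf* had the largest log2 fold change of the 10 genes, 3.13 (SE 0.39, adjusted p = 0.000569).

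*Grhl1* (chr12:24572232-24617391, plus strand), which is known for regulating desmosomal cadherins in the epidermis, was at 0.25, 0.22 and 0.16 FPKM at E10.5, 4.19, 1.04 and 1.37 FPKM at E14.5 and 18.24, 11.94 and 13.14 FPKM at E16.5. The log2 fold change was 3.32 (SE 0.62, adjusted p = 0.000994) and then 2.88 (SE 0.39, adjusted p = 0.000766). No samples of different stages overlapped for *Grhl1* or *Ehf*.

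*Klf5* (chr14:99298691-99313412, plus strand), a Krüppel-like factor of proliferating basal cells, was at 0.45, 1.28 and 0.59 FPKM at E10.5, 26.19, 8.06 and 8.86 FPKM at E14.5 and 63.5, 48.84 and 52.94 FPKM at E16.5. It rose by a log2 fold change of 4.17 (SE 0.56, adjusted p = 0.000116) and then of 2.1 (SE 0.37, adjusted p = 0.00208). It therefore passed from the seventh level at E10.5 to overlapping *Trp63* at E16.5.

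*Elf3* (chr1:135253574-135258472, minus strand), the other epithelium-specific Ets factor, was at 1.9, 1.66 and 1.25 FPKM at E10.5, 8.15, 2.7 and 2.17 FPKM at E14.5 and 20.64, 13.56 and 14.67 FPKM at E16.5. Its earlier rise had a log2 fold change of 1.4 (SE 0.46, adjusted p = 0.0236) and rested on E14.5 replicate 1. Without that sample it was 0.59 (SE 0.28, adjusted p = 0.0925) and was not called. It was also not called without E10.5 replicate 2 (adjusted p = 0.0587) or replicate 3 (adjusted p = 0.083). The later rise was 2.08 (SE 0.39, adjusted p = 0.00285).

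*Ovol1* (chr19:5549137-5560575, minus strand) was at 0.11, 0.42 and 0.51 FPKM at E10.5, 4.74, 1.13 and 1.89 FPKM at E14.5 and 12.54, 8.94 and 9.21 FPKM in the E16.5 samples. The log2 fold change was 2.87 (SE 0.59, adjusted p = 0.00182) and then 2.15 (SE 0.42, adjusted p = 0.00341). At E16.5 it had the lowest mean of the 10 genes and overlapped *Grhl1*.

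*Grhl3* (chr4:135541887-135573632, minus strand), a factor of epidermal barrier formation and neural tube closure, was at 0.63, 2.51 and 2.1 FPKM at E10.5, 12.43, 7.41 and 6.74 FPKM at E14.5 and 24.22, 16.41 and 16.98 FPKM at E16.5. It lay between the other genes in the later interval, with log2 fold changes of 2.32 (SE 0.38, adjusted p = 0.000437) and 1.28 (SE 0.31, adjusted p = 0.0101).

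*Klf4* (chr4:55527137-55532475, minus strand), a Krüppel-like factor of epithelial differentiation and barrier function, was the exception to the earlier rise. It was at 10.91, 8.62 and 1.66 FPKM at E10.5, 10.29, 7.85 and 19.08 FPKM at E14.5 and 24.49, 18.07 and 18.28 FPKM at E16.5. The E10.5 and E14.5 samples overlapped, as did the E14.5 and E16.5 samples. The log2 fold change was 0.81 (SE 0.50, adjusted p = 0.195) and then 0.86 (SE 0.48, adjusted p = 0.191), and only the difference between E10.5 and E16.5 was called, at 1.67 (SE 0.50, adjusted p = 0.0115). Its highest E10.5 sample was 6.57 times its lowest. *Klf2*, a relative named after its values were seen, had its low E10.5 sample and its high E14.5 sample in the same replicates, with 18.76, 14.87 and 4.76 FPKM at E10.5 and 2.9, 2.7 and 10.96 FPKM at E14.5.

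The low values of *Pax6* and *Klf4* at E10.5 fell in replicate 3. *Pax6* is also a gene of the optic cup, and 3 retina markers (*Rax*, *Lhx2* and *Six6*) summed to 19.2, 23.2 and 5.79 FPKM in the 3 E10.5 samples, in the same order as *Pax6*. In the corneas they summed to 0.4 to 2.53 FPKM. Lens markers summed to 2.04 to 8.14 FPKM at E10.5, again lowest in replicate 3. The lens sum was higher in the corneas, at 26.6 to 44.1 FPKM at E14.5 and 46.3 to 51.5 FPKM at E16.5. Most of it there was *Cryab*, with means of 29.2 and 45.1 FPKM. The part of retina or lens tissue in the E10.5 level of *Pax6* was not tested. The 8 general epithelial genes summed to 41.2, 55.4 and 51.1 FPKM at E10.5, so epithelial RNA was measured in that tissue too, and *Trp63*, *Grhl2*, *Grhl3*, *Klf5* and *Ovol1* were, like their sum, lowest in replicate 1, whereas *Elf3* and *Grhl1* were highest in it.

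**Figure D2:**
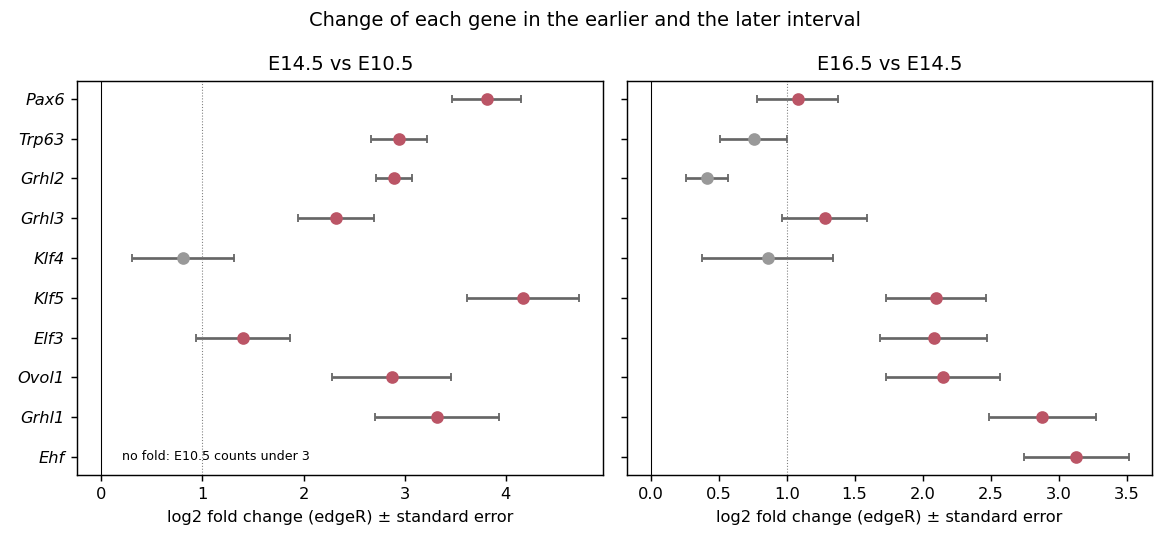
Points are edgeR log2 fold changes of each gene from E10.5 to E14.5 (left) and from E14.5 to E16.5 (right), with bars of ± 1 standard error, red where called higher and grey where not. The dotted line is the fold minimum. *Klf4* is grey on both sides, *Trp63* and *Grhl2* only on the right, and no fold is drawn for *Ehf* on the left.

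Both intervals include E14.5 replicate 1, and the 10 genes differed in how far it stood from the other E14.5 samples. The level in E14.5 replicate 1 over the mean of replicates 2 and 3 was 3.63 for *Ehf*, 3.48 for *Grhl1*, 3.35 for *Elf3*, 3.14 for *Ovol1* and 3.1 for *Klf5*. It was 1.76 for *Grhl3*, 1.64 for *Pax6*, 1.19 for *Trp63*, 1.18 for *Grhl2* and 0.76 for *Klf4*. Over 10924 genes with a mean of 5 FPKM or more at some stage, the median of this ratio was 0.99 and the 5th and 95th percentiles were 0.64 and 1.76. Without replicate 1 the log2 fold changes from E14.5 to E16.5 were larger, at 4.03 for *Ehf*, 3.75 for *Grhl1*, 2.91 for *Ovol1*, 2.89 for *Elf3* and 2.85 for *Klf5*. Of the 10 genes, 7 were called higher, as with all 9 samples, where 6.26% of genes tested were. The share of all genes called without replicate 1 is not given here. From E10.5 to E14.5 the log2 fold changes without replicate 1 were smaller, at 3.42 (SE 0.27) for *Klf5*, 2.46 (SE 0.38) for *Grhl1* and 2.11 (SE 0.43) for *Ovol1*, which were still called. For *Pax6* the 2 intervals gave 3.53 and 1.36 without that sample, for *Trp63* 2.84 and 0.85, for *Grhl2* 2.82 and 0.48, for *Grhl3* 2.01 and 1.59 and for *Klf4* 0.93 and 0.73.

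To see whether the genes rose beyond general epithelial genes, each was divided by the geometric mean of the 8 reference genes in the same sample, as log2 of FPKM + 0.1. Of the 8 reference genes, 7 were called higher from E10.5 to E14.5 and 2 from E14.5 to E16.5, beside 13.6% and 6.26% of genes tested. Their median log2 fold changes were 2.34 and 0.77. The 2 became 5 without E14.5 replicate 1, where no share over all genes is given here. With library totals the 2 became 1, where 731 genes were called higher in all. The ratios are descriptions, with no test. *Cdh1*, among the 8, is itself a gene that *Grhl2* directs, so the reference is not independent of the *Grhl* genes. From E14.5 to E16.5 the mean log2 ratio rose by 2.55 for *Ehf*, 2.28 for *Grhl1*, 1.55 for *Ovol1*, 1.53 for *Klf5* and 1.5 for *Elf3*, and the samples of the 2 stages did not overlap. Without E14.5 replicate 1 these differences were 2.97, 2.68, 1.92, 1.89 and 1.89. Relative to the same reference *Grhl3* differed by 0.53 and *Pax6* by 0.34, also without overlap. *Trp63* differed by -0.10 and *Klf4* by 0.18, and their samples overlapped. *Grhl2* was lower at E16.5 by this measure, at -0.36. All 10 differences depend on the reference, and with *Cdh1* and *Epcam* alone they were higher, at 0.25 for *Grhl2*, 0.50 for *Trp63*, 0.79 for *Klf4*, 0.95 for *Pax6*, 1.13 for *Grhl3* and 2.1 to 3.16 for the 5 genes above. *Epcam* itself went from 38.6 ± 2.52 FPKM at E14.5 to 25.6 ± 2.19 FPKM at E16.5 (log2 fold change -0.43, SE 0.10, adjusted p = 0.0076), under the fold minimum.

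**Figure D3:**
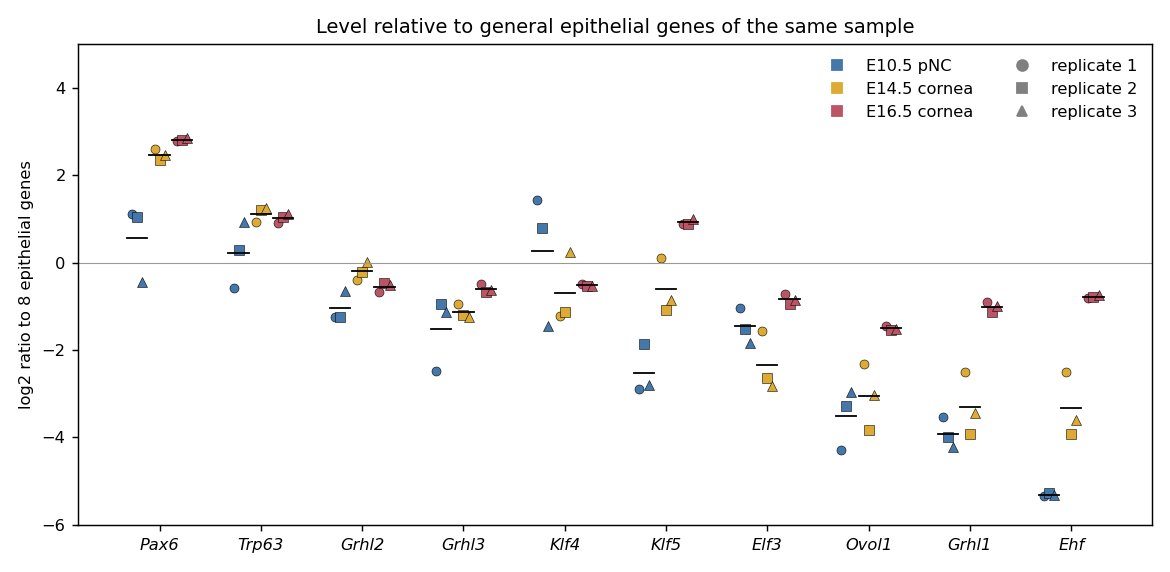
Each point is the log2 ratio of a gene (FPKM + 0.1) to the geometric mean of 8 general epithelial genes in the same sample, and each bar is the mean of a stage. The E16.5 points of *Klf5*, *Elf3*, *Ovol1*, *Grhl1* and *Ehf* lie above their E14.5 points, whereas those of *Trp63* and *Klf4* overlap them.

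The balance between related genes shifted within the cornea. *Grhl1*, *Grhl2* and *Grhl3* bind the same sequence, and of their summed level *Grhl1* made up 7.34 ± 4.05% at E14.5 and 26.9 ± 1.68% at E16.5, while *Grhl2* went from 61.1 ± 7.54% to 37.3 ± 3.38% (mean ± SD, n = 3). *Grhl3* stayed near its share, with 31.6 ± 3.94% and 35.8 ± 1.81%, and its samples overlapped. The mean log2 ratio of *Klf5* to *Klf4* was -2.78 in pNC, 0.09 in E14.5 cornea and 1.44 in E16.5 cornea. In 1 E14.5 sample, replicate 3, *Klf4* was the higher by a log2 ratio of -1.1, whereas in replicate 1 *Klf5* was higher by 1.34. The log2 ratio of *Ehf* to *Elf3* was -0.99 ± 0.26 at E14.5 and 0.06 ± 0.12 at E16.5, so that *Ehf* was lower than *Elf3* in every E14.5 sample and within 0.16 of it on the log2 scale in every E16.5 sample. That of *Trp63* to *Pax6* fell by 0.45 on the log2 scale from E14.5 to E16.5. None of the 5 ratios overlapped between E14.5 and E16.5. That of *Klf5* to *Klf4* came near to overlap, with a highest E14.5 value of 1.34 and a lowest E16.5 value of 1.37. The share of other gene pairs without overlap was not computed, and the 5 ratios were not tested.

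**Figure D4:**
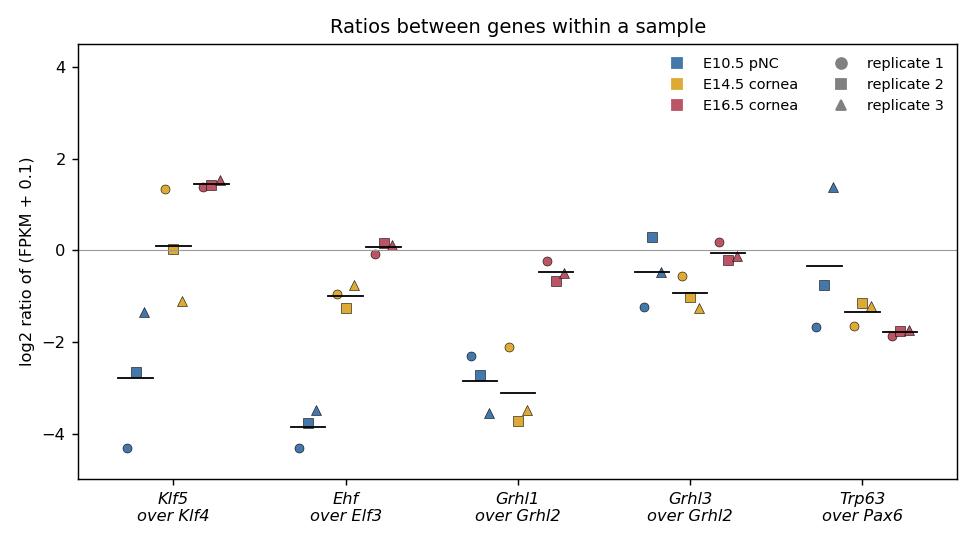
Each point is the log2 ratio of the levels (FPKM + 0.1) of the named genes in a sample, coloured by stage, and bars are stage means. The ratios of *Klf5* to *Klf4*, *Ehf* to *Elf3* and the 2 *Grhl* ratios are higher in every E16.5 sample than in every E14.5 sample, and that of *Trp63* to *Pax6* is lower.

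The RefSeq promoter table used here (GRCm38.p6) held 5 of the 10 genes, with sequence from 250 bases before to 50 bases after a start. They are *Pax6*, *Klf4*, *Elf3*, *Grhl1* and *Grhl3*, with 7 promoters. Those of the 3 genes with a single promoter in the table are shown. *Elf3* and *Grhl3* were called higher in both intervals, and *Klf4* was called in neither. The earlier call of *Elf3* rested on E14.5 replicate 1. Capitals mark matches to CACCC, the core of the Krüppel-like factor motif, on either strand (GGGTG on the strand shown). Each is printed 5' to 3' on the strand of its gene.
Elf3, chr1:135258423-135258722, minus strand: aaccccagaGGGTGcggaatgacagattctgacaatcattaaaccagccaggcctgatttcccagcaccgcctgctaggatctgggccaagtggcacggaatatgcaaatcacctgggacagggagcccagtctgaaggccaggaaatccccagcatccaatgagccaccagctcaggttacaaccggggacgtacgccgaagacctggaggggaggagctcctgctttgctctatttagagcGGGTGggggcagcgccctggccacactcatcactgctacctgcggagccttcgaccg
Grhl3, chr4:135573583-135573882, minus strand: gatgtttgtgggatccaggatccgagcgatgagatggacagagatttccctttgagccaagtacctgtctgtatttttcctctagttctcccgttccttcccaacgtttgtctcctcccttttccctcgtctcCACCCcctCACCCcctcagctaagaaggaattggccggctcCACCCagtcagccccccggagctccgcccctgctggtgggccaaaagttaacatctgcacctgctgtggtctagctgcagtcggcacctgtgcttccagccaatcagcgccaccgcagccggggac
Klf4, chr4:55532426-55532725, minus strand: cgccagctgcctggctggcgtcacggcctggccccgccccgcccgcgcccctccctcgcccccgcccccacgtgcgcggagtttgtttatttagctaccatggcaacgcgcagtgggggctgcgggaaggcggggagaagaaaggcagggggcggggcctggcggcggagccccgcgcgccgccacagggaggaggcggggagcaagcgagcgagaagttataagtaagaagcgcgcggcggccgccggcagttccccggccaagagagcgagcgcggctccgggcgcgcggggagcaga

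*Elf3* held 2 matches, with first bases at positions -241 and -7 from the start, and *Grhl3* held 3, at -117, -109 and -76. *Klf4* held no match to these letters. *Pax6* and *Grhl1* were also called higher in both intervals. Of the *Pax6* promoters the first held 1 match and the second none. Of the *Grhl1* promoters the second held 2 and the first none. In all, 4 of the 7 promoters held a match. Of 32851 mouse promoters of this length, 57.5% held at least 1 such match. The sequence AACCGGT, the core bound by Grainyhead-like factors, was in none of the 7 promoters and in 1.02% of all promoters. The Ets motif AGGAAG was in 1 of the 7, the second *Grhl1* promoter, and in 35.4% of all promoters, and TATAAA was in none of the 7 and in 13.6%. The GC content was 74.3% for *Klf4*, 59% for *Elf3* and 58.3% for *Grhl3*, beside a median of 52.7%.

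Genes that these factors are known to regulate, among them keratins, desmosomal genes and claudins, were measured beside them. Of 19 such genes 18 were tested, and *Aqp5* was not listed in any sample. From E10.5 to E14.5, 17 of the 18 were called higher, from E10.5 to E16.5 all 18, and from E14.5 to E16.5, 12. Over all genes tested these shares were 13.6%, 19.4% and 6.26%. The median log2 fold change of the 18 genes was 3.67, 6.65 and 1.63. *Krt12*, the keratin particular to corneal epithelium and a target of Pax6 and Klf4, was at 0.18, 0.54 and 0.43 FPKM at E10.5, 101.52, 0.62 and 2.06 FPKM at E14.5 and 989.66, 652.73 and 592.13 FPKM at E16.5. Its E14.5 level thus came almost wholly from replicate 1. In that sample *Klf5*, *Ehf* and *Grhl1* were high, as was the stroma marker sum. *Pax6* was at 1.64 times the mean of replicates 2 and 3 there, and *Klf4* at 0.76 times. The cause of the high *Krt12* level in replicate 1 was not tested. *Krt5*, the basal keratin under p63, rose from 3.66 ± 0.80 FPKM to 600 ± 384 and 2.38e+03 ± 447 FPKM. *Krt14*, its partner, was at 209.17, 14.88 and 29.07 FPKM in the E14.5 samples and at 447.43 to 574.33 FPKM at E16.5. *Tkt*, the transketolase that is abundant in corneal epithelium, was at 114 ± 5.05, 175 ± 37.5 and 253 ± 5.21 FPKM and was called only between E10.5 and E16.5 (log2 fold change 1.3, SE 0.14, adjusted p = 1.27e-05).

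Close relatives of the 10 genes were read beside them. Of 35 relatives in the *Pax*, *Klf*, *Elf*, grainyhead-related, p53 and *Ovol* families 29 were tested, and 4 were called higher and 5 lower from E10.5 to E14.5, beside 13.6% and 7.97% of all genes tested. Their median log2 fold change was -0.09 in that comparison and 0.25 from E14.5 to E16.5. In the later comparison 5 were called higher by edgeR and no relative lower, beside 6.26% and 5.47% of genes tested. At an unadjusted p under 0.05, 13 relatives were higher and 2 lower, but the share of all genes at that threshold was not computed. DESeq2 called 1 relative lower, where it called 815 genes lower in all. *Trp73*, a p53 family relative of *Trp63*, was at 0.25 ± 0.16, 6.77 ± 3.41 and 15.2 ± 1.86 FPKM and was called higher in each interval, with log2 fold changes of 4.78 (SE 0.45) and 1.33 (SE 0.29). *Trp53* went the other way, from 101 ± 2.69 to 59.9 ± 7.03 and 40.3 ± 1.15 FPKM, and was called lower between E10.5 and E16.5 (log2 fold change -1.18, SE 0.10, adjusted p = 1.59e-06). *Ovol2*, at 0.31 ± 0.20, 2.27 ± 0.75 and 2.27 ± 0.24 FPKM, rose in the earlier interval (log2 fold change 3.01, SE 0.45) and had a difference of 0.18 (SE 0.33) in the later one, beside 2.15 for *Ovol1*. *Ovol3* was not listed in any sample. *Elf5*, an Ets relative of *Elf3* and *Ehf*, rose to 3.23 ± 0.47 FPKM at E16.5 and *Spdef* was too low to be tested. Of the abundant relatives, *Elf1*, named after its values were seen, went from 7.56 ± 0.81 to 24.8 ± 3.33 and 31.5 ± 2.74 FPKM and was called higher in the earlier interval (log2 fold change 1.7), while *Ubp1*, *Elf2* and *Klf3* were not called in any comparison and had means of 17.2 to 48.7 FPKM at all stages.

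Of 10 further transcription factors of surface epithelia, 6 were called higher and 1 lower from E10.5 to E14.5, beside 13.6% and 7.97% of genes tested. From E14.5 to E16.5, 4 of them were called higher and 1 lower, beside 6.26% and 5.47%. The median log2 fold change was 1.51 and 0.68. *Zfp750*, a p63 target that drives terminal differentiation, was at 0.30 ± 0.11, 5.24 ± 3.3 and 27.1 ± 7.59 FPKM and was called higher in both intervals, with log2 fold changes of 4.11 (SE 0.55) and 2.53 (SE 0.35). *Dlx3*, a homeobox gene of stratified epithelia, and *Tfap2a*, an AP-2 factor of crest and ectoderm, were called in the earlier interval and not in the later one. *Dlx3* had log2 fold changes of 2.69 (SE 0.17) and 0.13 (SE 0.14), and *Tfap2a* of 1.57 (SE 0.12) and 0.15 (SE 0.11). *Tfap2c* was not called in any comparison, at 6.49 to 9.88 FPKM. The genes called lower, named after their values were seen, were *Gata3*, from 11.7 ± 2.33 to 0.34 ± 0.09 FPKM at E14.5, with 0.76 ± 0.28 FPKM at E16.5, and *Prdm1*, from 0.72 ± 0.28 FPKM at E14.5 to 0.06 ± 0.04 FPKM at E16.5. At this low level *Gata3* was also among the 4 called higher from E14.5 to E16.5 (log2 fold change 1.34, SE 0.35, adjusted p = 0.0132).

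Transcription factors known as mesenchymal opponents of epithelial genes were measured in the same samples. Of 6 such genes 1 was called higher and 1 lower from E10.5 to E14.5, beside 13.6% and 7.97% of genes tested. *Twist2* was called higher from E10.5 to E14.5, at 34.5 ± 4.34 and 185 ± 29.3 FPKM, and reached 254 ± 15 FPKM at E16.5. *Snai1* was called lower, at 28.6 ± 3.25 and 6.63 ± 2.25 FPKM (log2 fold change -2.12, SE 0.23, adjusted p = 2.47e-05). *Twist1* (132 ± 21.7, 164 ± 17.6 and 140 ± 16.2 FPKM) and *Snai2* (19.1 ± 2.5, 36 ± 2.81 and 32.8 ± 0.87 FPKM) were not called. *Snai2* had a log2 fold change of 0.90 from E10.5 to E14.5 (SE 0.10, adjusted p = 3.62e-05), under the fold minimum, and its samples did not overlap. By in situ hybridization the authors found *Snai2* at all stages, with strong signal in corneal epithelium and endothelium at E16.5. From E14.5 to E16.5 edgeR and DESeq2 called 0 of the 6 genes in either direction, where edgeR called 6.26% of genes tested higher and 5.47% lower. At an unadjusted p under 0.05, 2 of the 6 were higher and 1 lower, but the share of all genes at that threshold was not computed. At an adjusted p under 0.05 with no fold minimum, 2579 of the 14771 genes tested were higher and 2585 lower. The median log2 fold change of the 6 genes was -0.02.

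Markers of neighbouring surface epithelia were read beside the 10 genes, most of which are also expressed in epidermis and conjunctiva. Epidermis markers (*Krt1*, *Krt10*, *Lor* and *Ivl*) summed to 28.4, 11.5 and 9.96 FPKM in the E14.5 samples and to 14.9 to 18.4 FPKM at E16.5. *Lor* made up 19.03 FPKM of the E14.5 replicate 1 sum and *Ivl* was at 0.31 FPKM or less in every sample. Of the conjunctiva markers, *Krt13* was at 0.09, 0 and 0.17 FPKM at E14.5 and at 17.36, 6.45 and 6.85 FPKM at E16.5, and *Krt4* at 0.53, 0 and 0.05 FPKM and then 3.2, 5.38 and 2.57 FPKM, while the goblet cell mucin *Muc5ac* was at no more than 3 counts in any sample. The part of these tissues in the levels of the 10 genes was not tested.

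For each of the 10 genes the most similar genes over the 9 samples were listed by Pearson's r of log2(FPKM + 1), as a description, since the samples share 3 stages and r mostly follows them. *Grhl2* was nearest to *Gjb2* (r = 0.999), a connexin, and *Wnt4* (0.997). *Gjb2* was also among the genes most similar to *Trp63* (0.988). *Pax6* was nearest to *Cryab* (0.998), a small heat shock protein that is also a lens crystallin, and *Pink1* (0.997). The remaining genes had other neighbours. *Ehf* was nearest to *Adh1* (0.998) and *Parp4* (0.997), *Grhl1* to *S100a14* and *Ces1d* (both 0.998), *Klf5* to *Chrna1* and *Lratd1* (both 0.998), *Elf3* to *Slc19a2* (0.996) and *Acsl5* (0.995), and *Ovol1* to *Gdpd2* (0.997) and *Tmem79* (0.995). *Grhl3* was nearest to *Ccdc51* (0.996) and *Spint1* (0.993). *Klf4* had the least similar neighbours, *Fam219a* (0.974) and *Epn1* (0.966), and its r with the other 9 genes ran from 0.548 to 0.782, against 0.752 to 0.999 among those 9.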

How the data were processed

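RNA-Seq of 9 samples (3 per stage) was analysed. Per the methods and labels, the authors mapped HiSeq reads with Bowtie 2 and HISAT to GRCm38 and quantified genes with RSEM, with versions not given in the sources used here. The deposited expected counts are RSEM estimates and are not normalized. The deposited FPKM values were scaled by the authors to transcript length and mapped fragments. A gene not listed in a sample was taken as 0.

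Entrez identifiers were matched to RefSeq (GRCm38.p6) for 19312 of 19369 genes. Counts were rounded, filtered with filterByExpr, scaled with TMM and fitted by stage over all 9 samples with edgeR 4.0.16 in R 4.3.3 (glmQLFit, glmQLFTest). Genes were called where the p adjusted by Benjamini and Hochberg was under 0.05 and the log2 fold change was 1 or more in size. The standard error was taken from the F statistic. The test was tried on simulated data. Alternatives were library totals, DESeq2 1.42.0, no filter, limma 3.58.1 on log2(FPKM + 1) or + 0.1, the NOISeq criterion (probability of at least 0.8), no fold minimum, a replicate block and leaving out each sample. With totals of 8745161 to 9069023 counts, counting error was small only for genes with many counts. At E10.5 it was large not only for *Ehf* but also for *Grhl1* (5 to 8 counts), *Ovol1* (3 to 13) and *Klf5* (7 to 20). The p-values measure the spread between these pools, which nothing in the labels ties to separate litters. Strand in counting is not given in the sources used here, so reads of *Elf3*, *Grhl2* and *Ovol1* cannot be told from those of annotated genes on the opposite strand (*Gm26642*, *Gm16136*, *AC126029.1* and *Gm31166*).

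The 10 genes and the lists were chosen with earlier results of these data known. Named from each list were the 4 genes with the highest mean FPKM, every p53, *Ovol* and epithelium-specific Ets relative, and the 2 genes most similar to each of the 10. Other names are stated as chosen after their values were seen or as list members beside a count or sum. Some list members and a similar gene are not reported here.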

Additional observations from a re-analysis of the deposited data

How the results depend on the processing

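Of the 10 genes, 9, 10 and 7 were called higher in E14.5 cornea over pNC, E16.5 cornea over pNC and E16.5 over E14.5 cornea. Under the alternatives these counts stayed within 1.5 times except for the first, which was 5 by the NOISeq criterion, where *Ehf*, *Elf3*, *Grhl1* and *Ovol1* were not called. Leaving out a sample gave 8 to 9, 10 and 6 to 7. *Elf3* from E10.5 to E14.5 was not called with limma on log2(FPKM + 1) (0.88, adjusted p = 0.0552) or without E10.5 replicate 2 (adjusted p = 0.0587), E10.5 replicate 3 (0.083) or E14.5 replicate 1. *Pax6* from E14.5 to E16.5 was not called with library totals, with limma (0.95 with either pseudocount), by NOISeq or without E14.5 replicate 2 or 3 or E16.5 replicate 1 (0.95 to 0.97). *Grhl3* in that interval was not called with limma on log2(FPKM + 0.1) (1.14, adjusted p = 0.0625), and *Trp63* was called without the fold minimum. With *Cdh1* and *Epcam* as reference the difference in log2 ratio turned from -0.36 to 0.25 for *Grhl2* and from -0.10 to 0.50 for *Trp63*, and moved from 0.34 to 0.95 for *Pax6* and from 0.53 to 1.13 for *Grhl3*. The cause of these changes was not tested, except that the fold minimum and the list of reference genes act by construction.

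Across genes, the deviations of samples with the same replicate number had a mean r of -0.03 over 9 pairs (-0.256 to 0.216). Over 18 pairs of different numbers the mean r was 0.02 (-0.168 to 0.152). These values cannot decide whether the numbers are a pairing, because r took either sign in both sets. The main fit used no pairing. A replicate block changed no call of the 10 genes and gave 1985, 2855 and 937 genes called higher over all genes, against 2014, 2862 and 924.

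Counts over all genes moved by more than 1.5 times with limma on log2(FPKM + 1) (1302 higher and 760 lower at E14.5 over E10.5, against 2014 and 1177, then 1885 higher at E16.5 over E10.5, against 2862, and 517 and 511 at E16.5 over E14.5, against 924 and 808), by NOISeq (941 and 535, 1694, 381 and 401) and with no fold minimum (4273 and 4055, 5197 and 5119, 2579 and 2585).

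The small counts for the other lists moved most. From E10.5 to E14.5, NOISeq called 2 relatives higher and 3 lower (4 and 5 as reported, and so in the brackets that follow) and 3 further epithelial factors higher (6). With no fold minimum 8 relatives were lower, and 2 mesenchymal factors were higher (1), as when a sample was left out (1 to 2). From E10.5 to E16.5, limma on log2(FPKM + 1) called 4 relatives higher and NOISeq 3 (7). Both, and limma on log2(FPKM + 0.1), called 1 further epithelial factor lower (2) and 1 mesenchymal factor higher (2). Library totals gave 1 mesenchymal factor higher, leaving out a sample 1 to 3, and no fold minimum 2 lower (1). From E14.5 to E16.5, the relatives called higher (5) were 3 with library totals, 1 and 2 with limma, 1 by NOISeq, 11 with no fold minimum and 2 to 7 when a sample was left out. The relatives called lower (0) were 1 with library totals, DESeq2 and no fold minimum, and 0 to 1 when a sample was left out. Of the further epithelial factors, 0 were lower with limma or by NOISeq (1). With no fold minimum 2 mesenchymal factors were higher (0). The general epithelial genes called higher (2) were 1 with library totals, limma or NOISeq, 6 with no fold minimum, which also called 1 lower, and 1 to 5 when a sample was left out, 5 being the count without E14.5 replicate 1.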
